A study of Scomber scombrus with 32 samples.

Results

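Transcripts of 4 genes of the BMP and Wnt signalling systems were followed through 32 RNA libraries of cultured mackerel (Scomber scombrus) muscle cells: bmpr1bb (gene ID 133994839), nog1 (134000092), sost (134003461) and id4 (133983422). They were taken by gene ID from a table of 24189 genes, and had been chosen by their measured counts, which differed between culture states and between early and late passages. Their levels in these states are therefore given as a description, with no test, and tests are given only for other genes of the same systems.

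The cells belong to Mack1 and Mack2, a pair of continuous lines derived from skeletal muscle. Mack1 was sequenced at p77, labelled as after immortalization, and at p27, labelled as before it, and Mack2 at p180 (after) and p2 (before). At each Mack1 stage 4 states were taken, with 3 libraries each. In serum starvation, confluent cells were no longer fed. In serum reduction, confluent cells were fed medium with 2.5% serum. In lipid loading, confluent cells were fed growth medium with insulin (10 µg/mL), IBMX (0.5 mM, an inhibitor of phosphodiesterases), dexamethasone (0.25 µM, a glucocorticoid) and a lipid mixture (10 µL/mL). Proliferating cells, the baseline, grew in medium containing 20% serum and FGF2 (1 ng/mL). Mack2 was taken in proliferation at both stages, with 4 libraries each. Every Mack1 library is from 1 line, so passage number and immortalization cannot be told apart, nor can confluence and the change of medium. The labels call the libraries experimental replicates without saying that they came from separate cultures, so p-values measure only the spread between these libraries, which may be technical.

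As background, bone morphogenetic proteins (BMPs) are secreted ligands that bring type I and type II receptors together, and the receptors phosphorylate Smad proteins that enter the nucleus. The gene bmpr1bb encodes a type I receptor, and nog1 encodes noggin, a secreted protein that binds BMPs and keeps them from their receptors. Among the best-known transcriptional targets of BMP signalling are the ID genes, whose products, id4 included, bind E proteins and so limit the activity of MyoD-type factors in muscle precursors. Wnt ligands act through Frizzled receptors and the co-receptors Lrp5 and Lrp6, and sost encodes sclerostin, a secreted inhibitor that binds these co-receptors and is known in mammals mostly from bone cells. These roles come from other vertebrates and were not examined in mackerel.

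Libraries held between 16.9 and 32.01 M counts. Levels are given as CPM, counts scaled to the TMM-adjusted library size, and 3 counts in a library are worth 0.09797 to 0.1893 CPM. All 4 genes passed the filter on low counts among the 15683 genes tested in Mack1, while in Mack2 only bmpr1bb and id4 were among the 13805 tested. Summed markers of muscle precursors stood at 6100 to 6280 CPM in starved, 8160 to 8410 CPM in serum-reduced, 2690 to 3030 CPM in lipid-loaded and 419 to 453 CPM in proliferating p77 cells. The same sums at p27 were 5120 to 5490, 4960 to 5930, 1380 to 1510 and 564 to 625 CPM. In starved and serum-reduced cells of both stages the largest part was desma, so the sums do not measure how common precursors were. At p27 desma had 245092, 361147 and 31708 counts in starved, serum-reduced and lipid-loaded cells, against 1318 in proliferating ones. Both cdh15 and itga7 also had more counts in these p27 states. Two-way changes were seen for pax3b, with 5572, 4786 and 8740 counts, against 7788, and for met, with 6420, 2023 and 545, against 1035. Of the 10 muscle precursor markers, myf5 and desmb were at 0 in proliferating Mack1 cells, and pax7a was at 0 in the confluent p77 states. Epithelial markers summed to at most 0.364 CPM and neural and glial markers to at most 1.67 CPM in any library. Immune markers summed to 3.62 CPM in the lowest library, of starved p77 cells, and to 15.7 CPM in the highest, of Mack2 p180. Nearly all of this was csf1ra, while spi1b and coro1a were at 0 in every group. Starved p77 replicate 1 stood apart from its 2 partners for several of the genes below. Values with and without it are given for id1 and id2a. For other genes it stays in the mean and SD.

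**Figure D1:**
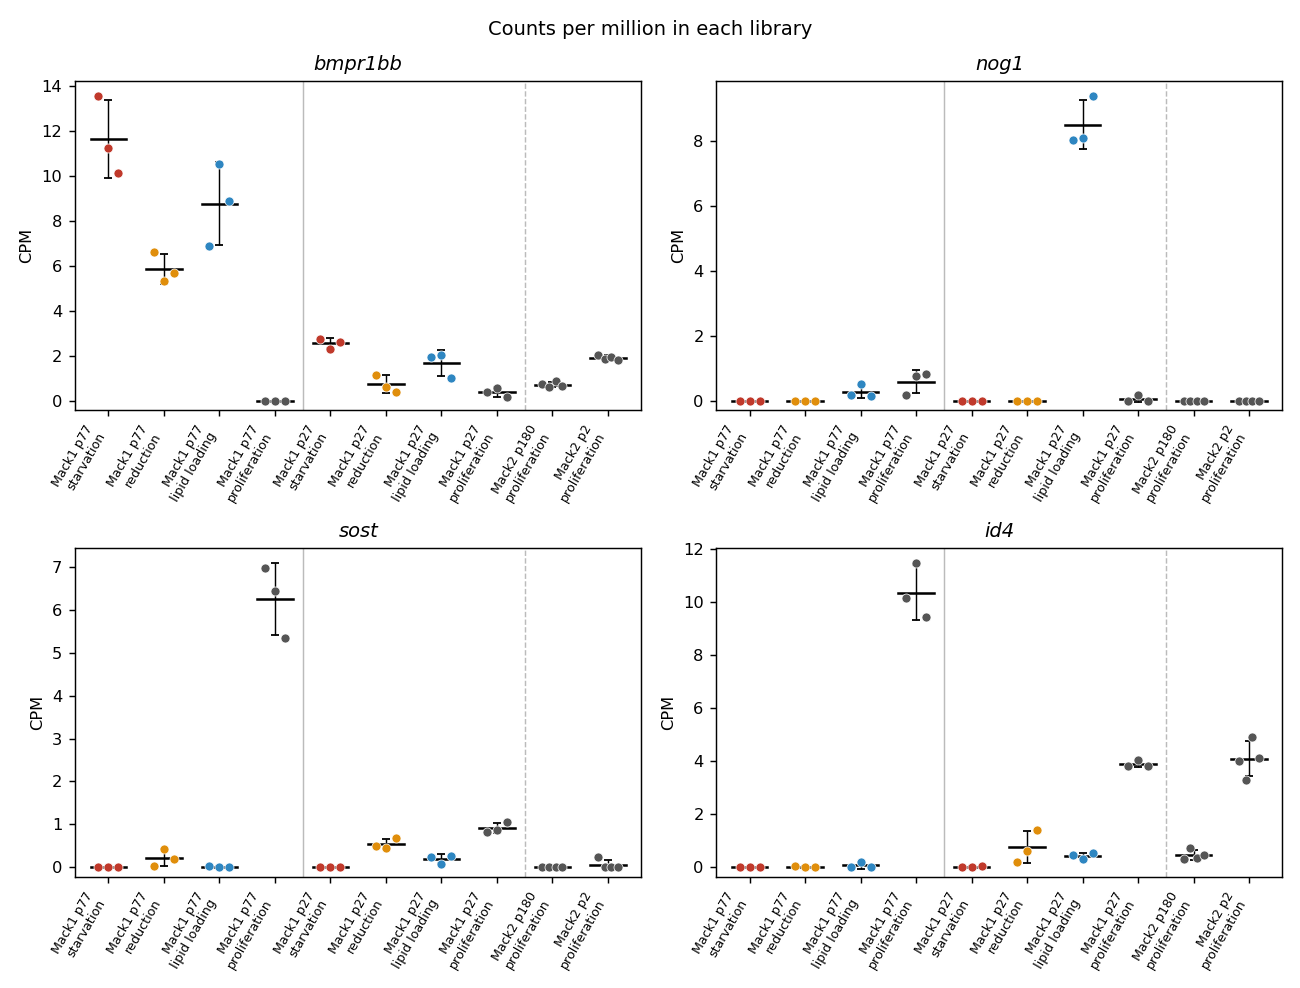
CPM of bmpr1bb, nog1, sost and id4 in each of the 32 libraries, on linear axes, with the group mean as a bar and the SD as whiskers. The gene bmpr1bb stood highest in starved p77 cells (mean 11.6 CPM), nog1 in lipid-loaded p27 cells (8.50 CPM), and sost (6.26 CPM) and id4 (10.3 CPM) in proliferating p77 cells.

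In Mack1 the 4 genes had 3 kinds of pattern. The receptor gene bmpr1bb was near or at 0 in proliferation and higher in the 3 confluent states, more so at p77. The genes sost and id4 ran the other way: both were highest in proliferation, and higher there at p77 than at p27. In contrast to both, nog1 averaged above 1 CPM in 1 of the 8 groups, lipid-loaded p27 cells. A fall in a bulk library can mean fewer cells that carry a transcript or less of it per cell, and these cannot be told apart here.

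The receptor gene bmpr1bb had 13.5, 11.2 and 10.1 CPM in starved p77 cells, 6.59, 5.30 and 5.65 CPM in serum-reduced cells and 6.87, 10.5 and 8.90 CPM in lipid-loaded cells, against no count in any of the 3 proliferating p77 libraries. No confluent p77 library came near the proliferating ones. With a floor of 3 counts over the proliferating group, it was at least 285-fold higher in starvation, at least 146-fold higher in serum reduction and at least 213-fold higher in lipid loading. The sum over the muscle precursor list was higher in the same states, which does not show that precursors were more common. There the largest part was desma, with 317997, 458269 and 124894 counts in starved, serum-reduced and lipid-loaded p77 cells, against 124 in proliferating ones. Both cdh15 and itga7 also had more counts there, while pax3b had fewer, at 4941, 3188 and 7070, against 10699. Counts of met were 6649, 3732 and 2872, against 4793. Pigment cell markers, 3 or 4 of 5 with counts, summed to 4.42 to 7.41 CPM in starved, 1.67 to 1.93 CPM in serum-reduced and 8.71 to 10.9 CPM in lipid-loaded p77 cells, against 0.764 to 1.38 CPM in proliferating ones, with tyr at 0 in all of them. The confluent sums were mostly dct, with 312, 101 and 788 counts in that order, against 1 in proliferation. By contrast mitfa had 21, 2 and 10 counts, against 39. The part of either list in the level of bmpr1bb was not tested. At p27 it had 2.74, 2.30 and 2.62 CPM in starved cells, 1.15, 0.621 and 0.394 CPM in serum-reduced cells and 1.96, 2.04 and 0.997 CPM in lipid-loaded cells, against 0.386, 0.567 and 0.136 CPM in proliferating cells. The starved and lipid-loaded p27 libraries lay above all proliferating ones, by log2 fold changes of 2.79 ± 0.41 and 2.18 ± 0.42 (SE), while the serum-reduced libraries overlapped with them (0.97 ± 0.45, or 0.48 without serum-reduced replicate 1).

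Between the stages, bmpr1bb was higher at p77 than at p27 in each confluent state, with log2 fold changes (± SE) of 2.18 ± 0.32 for starved, 3.01 ± 0.35 for serum-reduced and 2.39 ± 0.33 for lipid-loaded cells. In proliferation the order was turned round: with 0 counts at p77 against 25 counts over the 3 p27 libraries, it was at least 9.03-fold lower at p77. From high to low, its group means in Mack1 ran from starved p77 cells (11.6 ± 1.73 CPM) over lipid-loaded p77 (8.77 ± 1.83), serum-reduced p77 (5.85 ± 0.667), starved p27 (2.55 ± 0.228), lipid-loaded p27 (1.67 ± 0.58), serum-reduced p27 (0.723 ± 0.39) and proliferating p27 (0.363 ± 0.216) to proliferating p77 cells at 0 (SD, n = 3). Libraries of neighbouring groups overlapped between starved and lipid-loaded p77, between lipid-loaded and serum-reduced p27, and between serum-reduced and proliferating p27. The other neighbours did not overlap.

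The background to all tests was broad. In p77 cells against proliferation, 66.9% of the 15683 genes passed at an adjusted p under 0.05 in starvation (35.5% higher, 31.5% lower), 68.8% in serum reduction (36.8% and 31.9%) and 65.7% in lipid loading (35.2% and 30.6%). At p27 the shares were 64.3% (34.3% higher, 30% lower), 61.7% (32.4% and 29.3%) and 64.8% (34.3% and 30.4%). Between p77 and p27, 25.6% of genes passed in proliferation (10.5% higher at p77, 15.1% lower), 21.3% in starvation (11.1% and 10.2%), 30.9% in serum reduction (14.7% and 16.1%) and 34.3% in lipid loading (18.6% and 15.7%). Whether a response to a state differed between the stages was tested as a difference of log2 fold changes, p77 minus p27. By that test 13.6% of genes passed for starvation (8.7% higher, 4.89% lower), 22.7% for serum reduction (11.5% and 11.1%) and 23.6% for lipid loading (13.7% and 9.83%). Nothing is read from these shares about the 4 genes, since the same comparisons chose them. Nor is anything read from their groups not overlapping, since the share of all genes without overlap was not counted.

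The receptor closest to bmpr1bb by name, bmpr1ba, rose in the same 3 states. Its level was 31.6 ± 3.45 CPM in starved, 27.9 ± 1.47 CPM in serum-reduced and 15.8 ± 1.85 CPM in lipid-loaded p77 cells, against 0.679 ± 0.075 CPM in proliferating ones (log2 fold changes 5.54, 5.36 and 4.54, highest adjusted p = 5.8e-18). At p27 it rose too, to 15.0 ± 1.07, 12.1 ± 0.466 and 1.31 ± 0.295 CPM, against 0.132 ± 0.0445 CPM in proliferation (6.78, 6.47 and 3.26, highest adjusted p = 1.1e-09). Unlike bmpr1bb, it was higher at p77 than at p27 in proliferation as well (log2 fold change 2.32 ± 0.36, adjusted p = 1.5e-05). Reads that fit both copies could have been split between them, since no source used here says how such reads were counted.

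Other parts of the receptor complex did not move as one. The BMP co-receptor gene hjv (hemojuvelin) rose to 182 ± 25.8, 142 ± 4.06 and 55.2 ± 2.05 CPM in starved, serum-reduced and lipid-loaded p77 cells, against 0.192 ± 0.0723 CPM in proliferation, and at p27 to 186 ± 4.4, 117 ± 6.99 and 14.9 ± 1.65 CPM, against 1.62 ± 0.349 CPM. By contrast acvrl1, a type I receptor best known from endothelium, fell to 30.5 ± 4.02, 9.53 ± 1.61 and 25.5 ± 5.22 CPM in the 3 confluent p77 states, against 182 ± 8.11 CPM in proliferation. It fell at p27 as well (log2 fold changes -2.41, -2.47 and -1.35, highest adjusted p = 1.5e-07). Endothelial markers, 6 genes, summed to 1.93 to 4.32 CPM over the confluent p77 libraries and to 31.0 to 33.3 CPM in proliferating p77 ones, where cdh5 and pecam1a were at 0. The sum in proliferation was nearly all tie1 and kdrl, with 1569 and 770 counts. In starved, serum-reduced and lipid-loaded p77 cells egfl7 had 24, 57 and 77 counts, against 56 in proliferation. For pecam1b the counts were 14, 11 and 35, against 8. The part of endothelial markers in the fall of acvrl1 was not tested. The pseudoreceptor gene bambia, whose product lacks kinase activity, rose in lipid loading at both stages, by 1.14 ± 0.18 at p77 and 3.06 ± 0.19 at p27 (adjusted p = 4.8e-06 and 1.4e-13), and in p77 cells it fell in starvation and in serum reduction (-1.36 and -0.90). Of the 11 other receptor and co-receptor genes tested, 5 rose and 3 fell in starved p77 cells, 5 rose and 4 fell in serum reduction, and 7 rose and 2 fell in lipid loading. At p27, 5 rose and 2 fell in starvation and in serum reduction, and 8 rose and 2 fell in lipid loading. This list was matched by name and its counts include acvr1ba, by its symbol a copy of the activin receptor gene acvr1b.

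Ligand genes went in both directions. Of 16 BMP ligand genes matched by name, 8 were tested. The gene bmp5 had no count in proliferating Mack1 cells of either stage and was at 0.876 ± 0.374, 1.26 ± 0.107 and 3.52 ± 1.18 CPM in starved, serum-reduced and lipid-loaded p77 cells, at least 21.6-fold, 31.3-fold and 84.8-fold higher (highest adjusted p = 4.2e-07). It rose at p27 too, where it was at least 69.1-fold, 14.9-fold and 42.9-fold higher. Meanwhile bmp7b fell to 3.33 ± 0.353, 1.92 ± 0.405 and 4.75 ± 1.01 CPM in these p77 states, against 50.8 ± 2.03 CPM in proliferation, and bmp8a fell to 1.77 ± 0.261, 0.77 ± 0.154 and 1.48 ± 0.603 CPM, against 6.04 ± 1.5 CPM. Both also fell in the 3 states at p27 (highest adjusted p = 9.0e-11), and the log2 fold change of bmp7b in starved p27 cells was -4.58, or -5.30 without starved replicate 1. In proliferation bmp7b was higher at p77 (log2 fold change 2.02 ± 0.24, adjusted p = 3.3e-07) and bmp8a lower (-2.01 ± 0.27, adjusted p = 1.6e-06).

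The noggin gene nog1 had 8.03, 8.09 and 9.37 CPM in lipid-loaded p27 cells, from 193, 194 and 216 counts, against 0, 0.174 and 0 CPM in proliferating p27 cells. The lipid-loaded libraries lay far above the proliferating ones, with a log2 fold change of 7.06 ± 0.92 that rests on 4 counts in 1 proliferating library; without that library (replicate 2) the fitted value was 10.74. In lipid-loaded p77 cells nog1 had 0.164, 0.495 and 0.137 CPM, against 0.167, 0.754 and 0.807 CPM in proliferating p77 cells, and the groups overlapped (-1.14 ± 0.76). No starved or serum-reduced library of either stage had a count of nog1.

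Between the stages, nog1 in lipid loading was lower at p77 than at p27 by 5.01 ± 0.77 on the log2 scale, with no overlap. In proliferation it had 43 counts over the p77 libraries and 4 over the p27 ones, a log2 fold change of 3.20 ± 0.96 between groups that overlapped, since p77 replicate 1 had 4 counts; without p27 replicate 2 the p27 group held none. The order of its group means in Mack1 was lipid-loaded p27 (8.50 ± 0.755 CPM), proliferating p77 (0.576 ± 0.355), lipid-loaded p77 (0.266 ± 0.199) and proliferating p27 (0.0582 CPM from 1 library), with the other groups at 0. Only the step below lipid-loaded p27 cells was free of overlap.

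A second noggin gene, nog2, had another pattern. It fell to 2.24 ± 0.957, 3.62 ± 0.431 and 3.29 ± 1.32 CPM in starved, serum-reduced and lipid-loaded p77 cells, against 187 ± 9.72 CPM in proliferation. At p27 it was at 0.295 ± 0.193 CPM in starvation and 7.11 ± 3.33 CPM in serum reduction, but 44.9 ± 2.29 CPM in lipid loading, against 87.4 ± 3.42 CPM in proliferation. The fall in lipid loading was larger at p77 (-5.82 ± 0.26) than at p27 (-0.96 ± 0.21), a difference of -4.86 ± 0.32 (adjusted p = 8.5e-12). In lipid loading, most BMP, Wnt and ID partner genes that passed between the stages were lower at p77 than at p27. Among them was nog2 (log2 fold change -3.76 ± 0.25, adjusted p = 5.1e-12), with the direction that nog1 had.

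The gene grem2a, which encodes a secreted BMP antagonist of the gremlin family, shared that feature. It was at 17.2 ± 4.36 CPM in lipid-loaded p77 cells, against 203 ± 9.91 CPM in proliferation, and at 210 ± 21.6 CPM in lipid-loaded p27 cells, against 205 ± 6.5 CPM in proliferation. The test of the difference between the stages gave -3.60 ± 0.28 (adjusted p = 1.9e-10). In starvation and serum reduction grem2a fell at both stages, to 2.59 ± 1.51 and 3.25 ± 1.12 CPM at p77 and to 11.1 ± 3.76 and 18.7 ± 1.37 CPM at p27. Without starved p77 replicate 2 its log2 fold change in starved p77 cells was -6.86, against -6.26 with it. The genes fstl3, a follistatin-like protein that binds activins and myostatin, and crim1, a membrane protein that binds BMPs, fell in all 3 states at both stages (highest adjusted p = 1.3e-11). Of 16 genes matched in the list of BMP antagonists and extracellular modulators, 10 other than nog1 were tested. In p77 cells 1 rose and 8 fell in starvation and in serum reduction, and 2 rose and 7 fell in lipid loading, while at p27 1 rose and 7 fell in the first 2 states and 3 rose and 6 fell in lipid loading. The list's median log2 fold change in starved p77 cells was -3.02, or -2.10 with genes absent from a group set at their bound, against 0.06 over all genes tested.

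**Figure D2:**
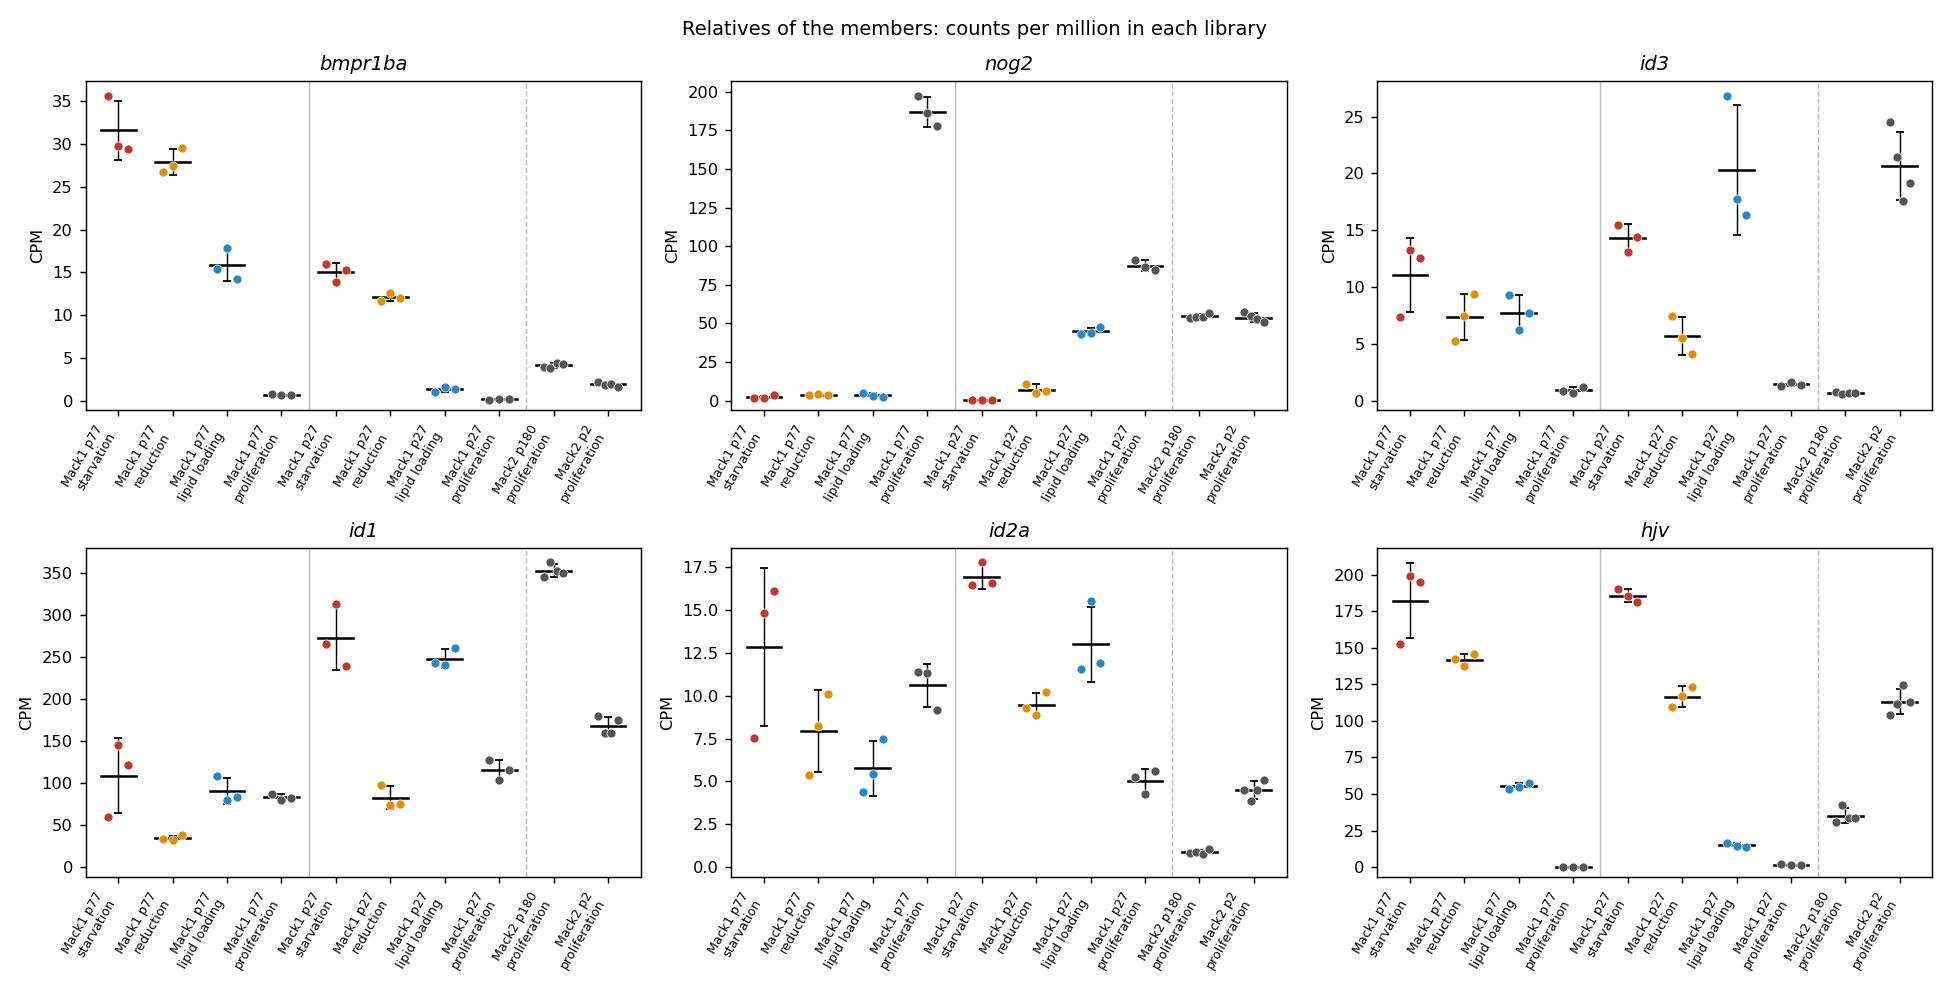
CPM in each library, with group means and SD, of bmpr1ba, nog2, id3, id1, id2a and hjv. In proliferating p77 cells nog2 stood highest (mean 187 CPM), while bmpr1ba (0.679 CPM) and hjv (0.192 CPM) were near 0 there.

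The ID gene id4 had no count in the 3 starved p77 libraries, 0.0364, 0 and 0 CPM in serum-reduced and 0, 0.206 and 0 CPM in lipid-loaded p77 cells, against 10.1, 11.5 and 9.42 CPM in proliferating p77 cells. All proliferating libraries lay above all others. With the floor of 3 counts over the group it was at least 253-fold lower in starvation. In serum reduction 1 count stood against 768, a 712-fold lower ratio with a 95% counting interval of 127 to 28200, and in lipid loading the fitted log2 fold change was -7.29 ± 0.73, or -11.02 without replicate 2, which held all 5 counts.

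At p27 id4 had 0, 0 and 0.0364 CPM in starved cells, 0.210, 0.621 and 1.4 CPM in serum-reduced cells and 0.458, 0.292 and 0.520 CPM in lipid-loaded cells, against 3.82, 4.06 and 3.81 CPM in proliferating cells. The groups did not overlap with proliferation in any of these states. In serum reduction id4 was lower by 2.39 ± 0.53 (3.20 without serum-reduced replicate 3) and in lipid loading by 3.19 ± 0.57 on the log2 scale, and in starvation the ratio was 300-fold lower from 1 count, with a 95% counting interval of 53.4 to 11900. Between the stages id4 was higher at p77 in proliferation (1.41 ± 0.48) and lower at p77 in lipid loading (-2.70 ± 0.85, or -6.43 without p77 replicate 2) and in serum reduction, where 1 count stood against 64 (50.4-fold lower, 95% counting interval 8.72 to 2020). No fold is given for starvation, where both groups were at or under 3 counts. Its group means ran from 10.3 ± 1.04 CPM in proliferating p77 cells over 3.90 ± 0.139 CPM in proliferating p27 cells, 0.743 ± 0.603 CPM in serum-reduced p27 and 0.423 ± 0.118 CPM in lipid-loaded p27 cells to 0.0688 CPM or less in the other groups. Serum-reduced and lipid-loaded p27 cells overlapped, as did neighbours among the lowest 4 groups, and the other steps did not.

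The other ID genes measured, id1, id2a and id3, did not move as one. The gene id3 rose in all 3 states at both stages, to 11.1 ± 3.25, 7.36 ± 2.07 and 7.74 ± 1.57 CPM at p77, against 0.902 ± 0.261 CPM in proliferation, and to 14.3 ± 1.23, 5.70 ± 1.69 and 20.3 ± 5.71 CPM at p27, against 1.42 ± 0.185 CPM (highest adjusted p = 1.5e-06). At p27 id1 rose in starvation (1.24 ± 0.19) and lipid loading (1.1 ± 0.19, highest adjusted p = 1.3e-05) and it fell in serum reduction at p77 (-1.26 ± 0.19, adjusted p = 2.2e-06) and at p27 (-0.49 ± 0.19, adjusted p = 0.026, above 0.05 when any of 4 of the 6 libraries was left out, up to 0.102). In starved p77 cells id1 was at 109 ± 44.5 CPM, against 83.2 ± 3.43 CPM in proliferation, which did not pass (0.39 ± 0.19, adjusted p = 0.069), but without starved replicate 1 it did (0.69, adjusted p = 8.4e-06). At p27 id2a rose in each state (1.75, 0.91 and 1.36, highest adjusted p = 0.0021), while at p77 it fell in lipid loading (-0.88 ± 0.24, adjusted p = 0.0021) and did not pass in starvation (0.27) or serum reduction (-0.43). Without starved replicate 1 the starvation value was 0.54 (adjusted p = 0.020), and without serum-reduced replicate 3 the serum reduction value was -0.65 (adjusted p = 0.034).

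Further BMP targets and Smad-level genes moved in both directions. The homeobox gene msx1a fell to 2.50 ± 0.179, 2.63 ± 0.587 and 12.2 ± 2.32 CPM in the 3 confluent p77 states, against 69.2 ± 4.21 CPM in proliferation, and at p27 it fell in starvation and serum reduction but was at 24.2 ± 7.51 CPM in lipid loading, against 24.3 ± 4.49 CPM. The inhibitory Smad gene smad6b fell likewise to 7.59 ± 1.34, 4.87 ± 1.1 and 9.09 ± 1.65 CPM at p77, against 135 ± 5.47 CPM. In lipid-loaded p27 cells smad6b was at 47.9 ± 7.33 CPM, against 55.4 ± 3.79 CPM in proliferation. The repressor gene tob1b, whose product inhibits cell growth and BMP-Smad activity in mammals, rose in all 3 states at both stages (highest adjusted p = 1.6e-11). Among the 6 BMP targets tested, id4 not among them, 1 rose and 3 fell in starved p77 cells, 1 rose and 4 fell in serum reduction and in lipid loading, and at p27 3 rose and 2 fell, 2 rose and 4 fell, and 4 rose and 0 fell in the same order of states. For lipid loading, the log2 fold change of 5 of these 6 was lower at p77 than at p27. The median difference was -1.94, against 0.04 over all genes tested. A lower value can be a larger fall, a smaller rise or a fall in place of a rise.

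Genes of the proteins that ID factors bind, or compete with, rose in starvation, and most of them also in serum reduction and lipid loading. Any link to the level of id4 was not tested. The myogenic factor gene myog was at 314 ± 124, 231 ± 5.57 and 79.6 ± 10.9 CPM in starved, serum-reduced and lipid-loaded p77 cells, against 0.165 ± 0.0879 CPM in proliferation. At p27 it was at 413 ± 4.65, 205 ± 5.69 and 31.8 ± 2.57 CPM, against 1.89 ± 0.237 CPM. Both myod1 and the E protein gene tcf12 rose in starved cells of p77 (1.37 ± 0.09 and 1.5 ± 0.11) and of p27 (1.09 ± 0.09 and 1.41 ± 0.11, highest adjusted p = 1.3e-11). Of the 5 partner genes tested, 5 rose in starvation at both stages and in serum reduction at p77, 4 rose in serum reduction at p27 and in lipid loading at both stages, and 0 fell in any of these comparisons.

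The sclerostin gene sost had no count in starved p77 cells, 0.0364, 0.430 and 0.198 CPM in serum-reduced and 0.0329, 0 and 0 CPM in lipid-loaded p77 cells, against 6.99, 6.45 and 5.35 CPM in proliferating p77 cells. Every proliferating library was far above the rest. It was at least 153-fold lower in starvation, lower by 4.85 ± 0.66 on the log2 scale in serum reduction (5.78 without serum-reduced replicate 2), and 525-fold lower in lipid loading from 1 count, with a 95% counting interval of 93.8 to 20800. At p27 sost had no count in starved cells, 0.490, 0.457 and 0.681 CPM in serum-reduced cells and 0.250, 0.0834 and 0.260 CPM in lipid-loaded cells, against 0.815, 0.873 and 1.04 CPM in proliferating cells. The p27 groups did not overlap with proliferation either, and the distances were smaller in serum reduction (-0.74 ± 0.58) and lipid loading (-2.18 ± 0.65) than in starvation, where sost was at least 23.3-fold lower.

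Between the stages, sost was higher at p77 in proliferation by 2.78 ± 0.57, with 464 counts over the p77 libraries. It was lower at p77 in serum reduction (-1.33 ± 0.66, or -2.26 without p77 replicate 2) and in lipid loading, where 1 count stood against 14 (16.5-fold lower, 95% counting interval 2.51 to 698). In starvation no library of either stage had a count. Its group means were 6.26 ± 0.836 CPM in proliferating p77 cells, 0.911 ± 0.119 CPM in proliferating p27, 0.543 ± 0.121 CPM in serum-reduced p27, 0.222 ± 0.198 CPM in serum-reduced p77, 0.198 ± 0.0992 CPM in lipid-loaded p27 and 0.011 CPM in lipid-loaded p77 cells. Serum-reduced p77 and lipid-loaded p27 cells overlapped, as did lipid-loaded p77 cells with the starved groups at 0, and the other neighbours did not. Bone markers, 6 genes, summed to 55.6 to 188 CPM over the confluent p77 libraries and to 259 to 278 CPM in proliferating p77 ones, with the osteoblast genes sp7 and bglap at 0 in both. The sum in proliferation was mostly alpl, at 115, 13.7 and 25.4 CPM in starved, serum-reduced and lipid-loaded p77 cells, against 253 CPM in proliferation, while phex ran the other way, at 21.0, 21.6 and 7.23 CPM, against 1.90 CPM. At p27 the bone sum was 70.4 to 76.4 CPM in starved cells, where sost was at 0, and 38.4 to 43.9 CPM in proliferating ones. Tendon markers, 2 genes, summed to 1.27 to 12.3 CPM over the confluent p77 libraries and to 94.3 to 102 CPM in proliferating p77 ones. Nearly all of this was tnmd, with 7211 counts in proliferating p77 cells, where mkxa had 1, against 7 for mkxa in lipid loading. Cartilage markers summed to 2.93 to 7.45 CPM and 104 to 116 CPM in the same p77 libraries. The cartilage sum in proliferation was nearly all acanb (110 CPM), while col2a1b was at 3.82, 5.44 and 4.03 CPM in the 3 confluent p77 states, against 0.229 CPM in proliferation. The part of such cells in the level of sost was not tested.

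The related gene sostdc1a, an antagonist of BMPs and Wnts in other vertebrates, had counts in 1 group alone, at 0.0139 CPM in lipid-loaded p27 cells, below the worth of 3 counts. Of the co-receptors that sclerostin binds, lrp5 fell in the 3 confluent states at p77 (-0.74, -1.14 and -0.95) and at p27 (-0.71, -0.97 and -0.55, highest adjusted p = 0.0036), and it was higher at p77 in proliferation (0.85 ± 0.15, adjusted p = 0.00011). By contrast lrp4, a sclerostin-binding receptor known also from the neuromuscular junction, rose in starved, serum-reduced and lipid-loaded p77 cells to 26.8 ± 8.26, 19.2 ± 4.22 and 9.97 ± 0.356 CPM, against 3.98 ± 1.06 CPM in proliferation. For lrp6 the log2 fold changes at p77 were -0.34 in starvation and -0.30 in lipid loading, which did not pass, and it fell in serum reduction (-0.87 ± 0.25, adjusted p = 0.0033).

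Among Wnt receptors fzd4, a Frizzled gene, was absent from proliferating p77 cells, as was bmpr1bb. It had no count in proliferating p77 cells and was at 55.1 ± 9.7, 40.0 ± 3.45 and 13.4 ± 1.71 CPM in starvation, serum reduction and lipid loading, at least 1350-fold, 984-fold and 326-fold higher. At p27 it rose to 24.1 ± 2.52, 12.4 ± 0.343 and 4.75 ± 0.823 CPM, against 0.147 ± 0.153 CPM in proliferation (7.31, 6.36 and 4.97, highest adjusted p = 7.4e-12). Leaving out proliferating p27 replicate 2 moved those 3 values to 8.41, 7.45 and 6.06, and leaving out replicate 1 moved the lipid loading value to 4.38.

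In p77 cells Wnt ligands and targets fell more often than they rose. The ligand genes wnt1 and wnt10b fell in starved, serum-reduced and lipid-loaded p77 cells, wnt1 to 1.88 ± 0.361, 0.569 ± 0.193 and 3.37 ± 1.4 CPM, against 73.8 ± 5.18 CPM in proliferation, and wnt10b to 3.21 ± 0.108, 2.10 ± 0.291 and 4.14 ± 1.1 CPM, against 77.2 ± 6.98 CPM. Of 9 Wnt ligand genes tested, 0 rose in starved or serum-reduced p77 cells and 5 and 6 fell, and 1 rose and 5 fell in lipid loading. At p27, 1 rose and 5 fell in starvation, 2 rose and 5 fell in serum reduction, and 4 rose and 4 fell in lipid loading. The target genes axin2 and nkd2b, which feed back on the pathway, and sp5a fell in the 3 confluent p77 states (highest adjusted p = 4.1e-07). In lipid-loaded p27 cells axin2 (0.11 ± 0.09, adjusted p = 0.29) and sp5a (-0.16 ± 0.20, adjusted p = 0.50) did not pass. The cyclin gene ccnd1, in the same list, rose in these p77 states (1.54, 1.34 and 3.11, highest adjusted p = 2.0e-07). Of the 6 Wnt targets, 1 rose and 5 fell in each p77 comparison, and at p27 0 rose and 5 fell in starvation, 1 rose and 5 fell in serum reduction, and 1 rose and 2 fell in lipid loading. The list of Wnt antagonists, matched by name and without sost, split at p77. Of the 6 genes tested, 2 rose and 2 fell in starvation and in lipid loading, and 2 rose and 3 fell in serum reduction. In starved, serum-reduced and lipid-loaded p77 cells frzb rose (0.91, 2.22 and 2.47) and dkk3b fell (-1.44, -1.64 and -2.74, highest adjusted p = 2.1e-07).

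**Figure D3:**
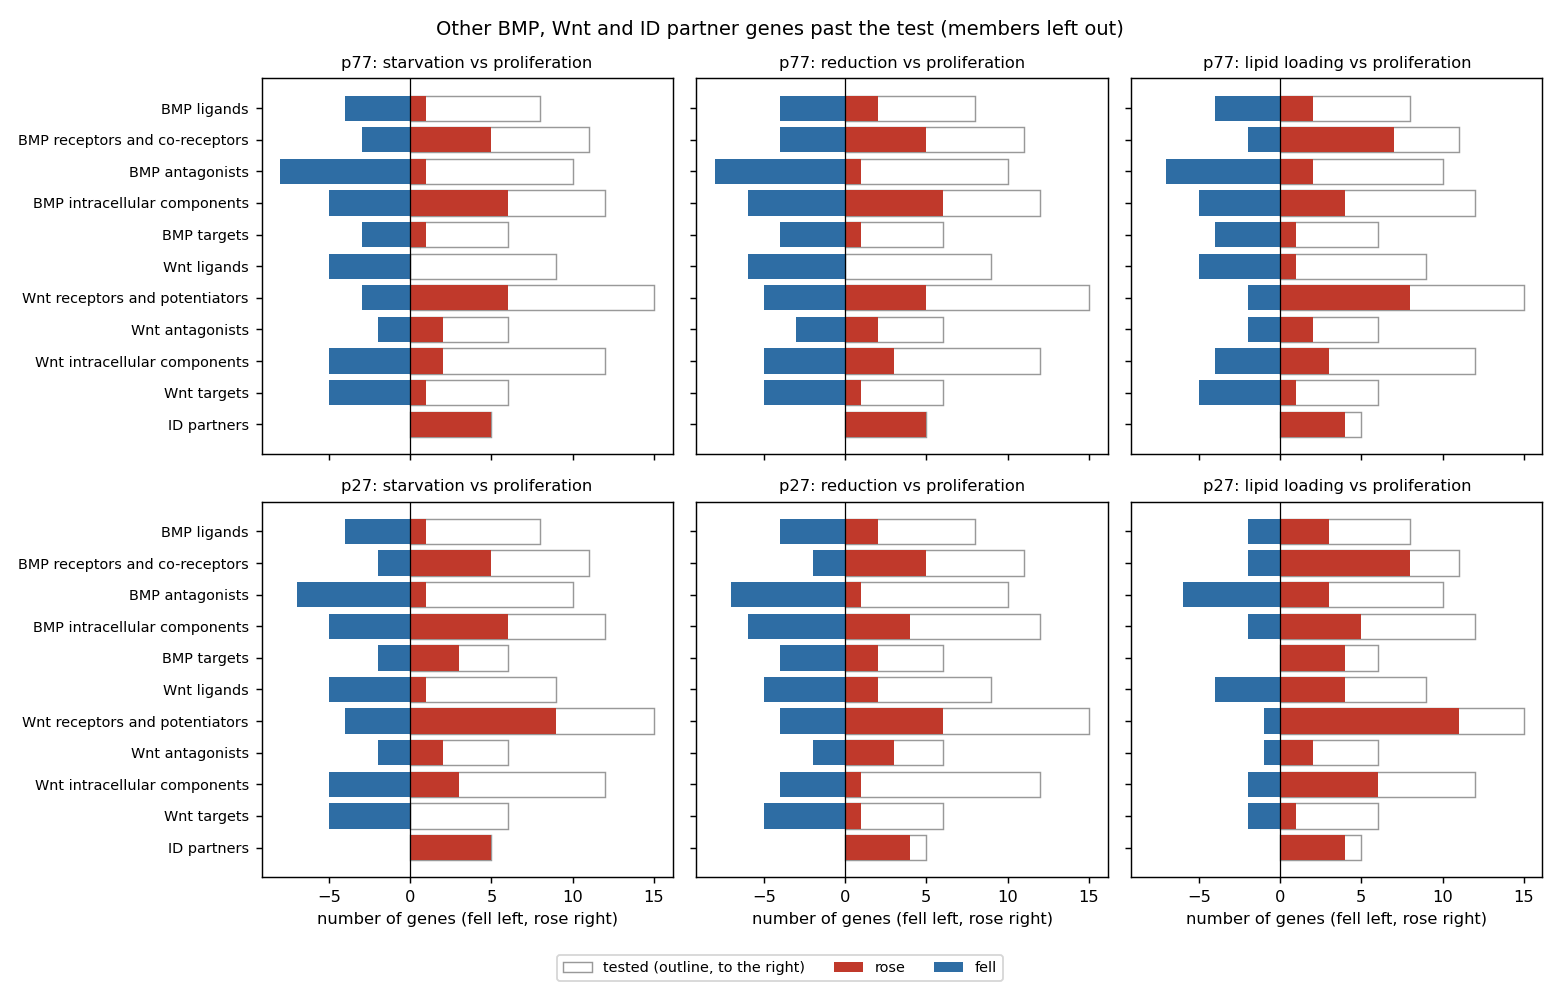
Number of BMP, Wnt and ID partner genes that rose (red, to the right) or fell (blue, to the left) in starvation, serum reduction and lipid loading against proliferation, for p77 in the upper and p27 in the lower row, with outlines for the number tested. Of the 100 genes tested, 35 rose and 40 fell in lipid-loaded p77 cells, and 51 rose and 22 fell in lipid-loaded p27 cells.

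Over the 11 lists together, 136 genes other than the 4 were matched by name and 100 were tested in Mack1. In p77 cells 73 passed in starvation (30 rose, 43 fell), 81 in serum reduction (31 and 50) and 75 in lipid loading (35 and 40), beside shares over all genes of 66.9, 68.8 and 65.7%. At p27, 77 passed in starvation (36 and 41), 74 in serum reduction (31 and 43) and 73 in lipid loading (51 and 22), beside 64.3, 61.7 and 64.8%. The median log2 fold changes of the lists were -0.19, -0.52 and -0.04 at p77 and -0.07, -0.14 and 0.43 at p27 in the same order, against medians between 0.05 and 0.09 over all genes. Between p77 and p27, 49 of the 100 passed in proliferation (31 higher, 18 lower), 47 in starvation (27 and 20), 46 in serum reduction (21 and 25) and 56 in lipid loading (15 and 41), beside 25.6, 21.3, 30.9 and 34.3% of all genes. The difference of responses passed for 24, 39 and 48 of the 100 genes in starvation, serum reduction and lipid loading, beside 13.6, 22.7 and 23.6%. For lipid loading 38 of these 48 had a lower log2 fold change at p77, which for a gene that fell means a larger fall.

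The comparisons with proliferation share the proliferating libraries, so the 4 genes are set side by side over all 24 Mack1 libraries only as a description. Over these libraries, which share 1 line and 8 groups, log2(CPM + 0.5) of sost and id4 had a Pearson r of 0.933. For bmpr1bb the values were -0.809 with sost and -0.861 with id4, and for nog1 they were -0.17 with bmpr1bb, 0.0493 with sost and 0.0924 with id4. Among 10994 named genes compared in the same way, vstm4b (r = 0.964), itga8 (0.954), ntn1b (0.923) and kif26ba (0.92) were most like bmpr1bb. Most like nog1 were igfbp6b (0.948), trim69 (0.926), tfap2a (0.926) and emilin1a (0.918). Of these, igfbp6b averaged 2.08 CPM in lipid-loaded p27 cells and at most 0.324 CPM in any other Mack1 group. Most like sost were emp3a (0.963), slc25a21 (0.943), rnf208 (0.943) and nqo1 (0.939), and most like id4 were pef1 (0.963), hdr (0.96), si:ch211-105c13.3 (0.959) and trpv4 (0.958). The gene emp3a averaged 13.1 CPM in proliferating p77 cells and 1.62 CPM in proliferating p27 cells, a step between the stages as in sost, whereas pef1 averaged 440 and 364 CPM there.

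**Figure D4:**
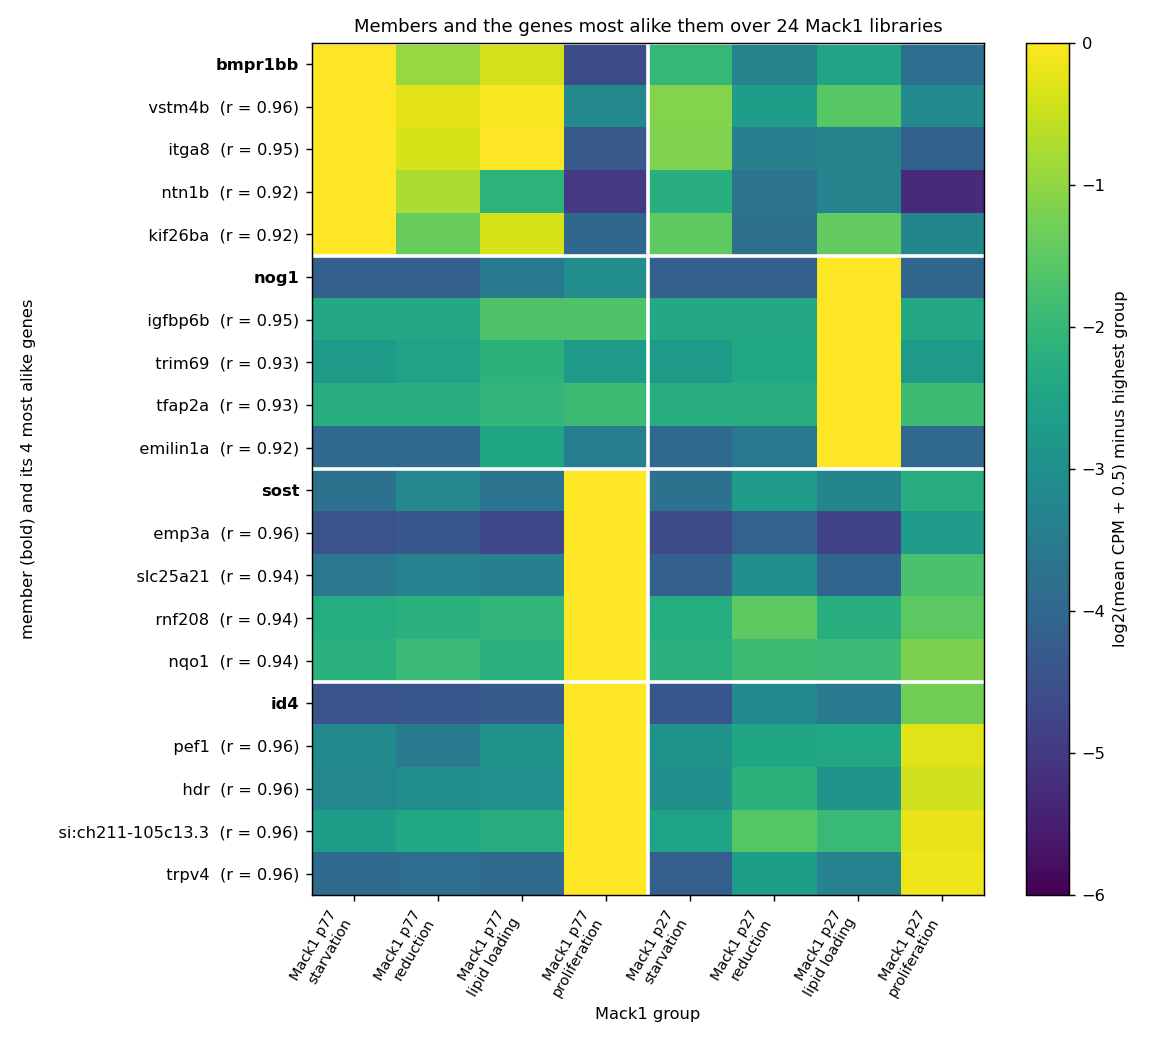
Group means of the 4 genes and the 4 genes most like each over 24 Mack1 libraries, as log2(mean CPM + 0.5) minus the gene's highest group, so that 0 is that group. The rows of nog1 reach their highest value in lipid-loaded p27 cells, and those of sost and id4 in proliferating p77 cells. The genes were picked for likeness over these same libraries, so a shared highest group largely follows from the choice.

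In Mack2, where proliferating cells alone were taken, the 2 genes measured well enough were lower at the late stage. The receptor gene bmpr1bb had 0.728, 0.608, 0.847 and 0.641 CPM at p180, against 2.03, 1.83, 1.95 and 1.79 CPM at p2, a log2 fold change of -1.43 ± 0.20 without overlap. The gene id4 had 0.312, 0.709, 0.349 and 0.452 CPM at p180, against 4.02, 3.28, 4.91 and 4.13 CPM at p2, lower by 3.15 ± 0.23 without overlap, whereas in proliferating Mack1 cells it was higher at the late stage. No library of Mack2 had a count of nog1, and sost had 5 counts in p2 replicate 1 and 0 in the others. In this line 77.7% of the 13805 genes tested passed between p180 and p2 (38.6% higher at p180, 39.1% lower).

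Relatives of the 4 genes in Mack2 moved in both directions. The gene bmpr1ba rose to 4.10 ± 0.264 CPM at p180, against 1.89 ± 0.266 CPM at p2 (1.11 ± 0.14, adjusted p = 3.8e-06), and nog2, at 54.7 ± 1.48 and 53.8 ± 2.78 CPM, did not pass (0.03 ± 0.05, adjusted p = 0.63). Of the ID genes, id3 fell to 0.656 ± 0.0751 CPM, against 20.7 ± 3.01 CPM (-4.97 ± 0.16, adjusted p = 1.5e-13), id2a fell to 0.899 ± 0.115 CPM, against 4.50 ± 0.515 CPM, and id1 rose to 353 ± 7.61 CPM, against 169 ± 10.5 CPM (1.07 ± 0.04, adjusted p = 2.4e-12). Of 91 genes of the lists tested, 81 passed, of which 31 rose and 50 fell, with a median log2 fold change of -0.35, against 0.01 over all genes. The labels give batch 2 for all Mack2 libraries but p2 replicate 4, labelled batch 1 as Mack1 is, so levels are not compared between the lines. They also call the cells of p180 replicate 1 satellite cells and those of the other libraries stem cells; without that replicate the log2 fold changes were -1.44 for bmpr1bb and -3.01 for id4.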

How the data were processed

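Per the labels' protocols, poly(A) RNA was made into libraries that keep no strand and read from both ends over 150 nt. Of the tools, the submitters' processing notes list DESeq2, FastQC, Salmon 1.10.1 and STAR, with no role for any. No source used here gives the build, the annotation or the treatment of reads that fit several genes. The authors deposited a table of raw counts per gene, whole numbers from the values, and a table of normalized signal, in which the deposited values are counts divided by 1 factor per library. Symbols come from the RefSeq gene table of fScoSco1.1, matched by gene ID. Mackerel sequences were not used here.

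Counts were tested with edgeR 4.0.16 in R 4.3.3 (filterByExpr by group, TMM, glmQLFit and glmQLFTest, two-sided, Benjamini-Hochberg adjustment over all genes tested, threshold 0.05), in 1 fit of 24 Mack1 libraries (common biological coefficient of variation 0.137) and 1 of 8 Mack2 libraries (0.0575). Errors are SD for levels, with n = 3 in Mack1 and n = 4 in Mack2 groups, and SE for log2 fold changes. This SE is approximate: the size of the log2 fold change was divided by the square root of the quasi-likelihood F statistic. A group without counts was set at 3 counts in total, which makes its fold a bound, and ratios against 1 to 3 counts carry exact 95% intervals. Floors and intervals cover counting error only. As alternatives, single libraries were left out, only the groups compared were fitted, the replicate number was added as a block, the filter was dropped or replaced by a minimum mean of 1 CPM, RLE replaced TMM, and DESeq2 1.42.0 or limma-trend (limma 3.58.1, on log2 of the deposited signal plus 1) replaced edgeR. The procedure was also run on simulated counts for 1 comparison, starved against proliferating p77 cells. Most genes were unchanged in that simulation, unlike in these data, so no support is drawn from it.

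The 4 genes, the lists of other genes (general knowledge, found by symbol), and the rule for naming genes were chosen with earlier results of these data known. The rule names the 4 genes, their relatives, the up to 3 genes of each list with the smallest p whose groups do not overlap, and the 4 genes most like each of the 4. Not all genes so named are reported. Same-numbered replicates showed little shared deviation (correlations -0.0752 to 0.0909 over 18 pairs at p77, -0.0489 to 0.0613 over 18 at p27, and -0.0666 to 0.159 over 4 in Mack2), so libraries were not paired by number. Low correlations cannot exclude that same-numbered libraries were prepared together. Figures come from matplotlib 3.10.9 under Python 3.11.15.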

Additional observations from a re-analysis of the deposited data

Results flagged for a closer look

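For 68 pairs of a gene and a Mack2 group of 4 libraries, the library farthest from the others was compared with the range of its group, and 2 exceeded Dixon's 95% critical ratio, which chance passes in about 1 of 20 groups. These were sost in p2 replicate 1 (0.2309 CPM) and bmp5 in p2 replicate 2 (0.1262 CPM), each the only library of its group with a count. With the other 3 libraries at 0 the ratio is at its maximum whatever the count, so it says nothing about these values.

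For each of the 4 genes, every library lay on one side of the mean it was set against in one comparison and on the other side in another, and these differences were not tested. The gene bmpr1bb was higher at p77 than at p27 in starvation (p77 mean 11.6367 CPM), serum reduction (5.8493 CPM) and lipid loading (8.766 CPM), and lower at p77 in proliferation. The reverse held for sost, lower at p77 in serum reduction (p77 mean 0.2215 CPM) and lipid loading (0.011 CPM) and higher at p77 in proliferation. The same was seen for id4 in serum reduction (p77 mean 0.0121 CPM) and lipid loading (0.0688 CPM). For nog1, with a mean of 0.2657 CPM in lipid-loaded p77 cells, the p77 libraries were below the p27 mean in lipid loading and above it in proliferation. Its lipid-loaded libraries were below the proliferating mean at p77, where the groups overlapped, and above it at p27.

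Of the 33 other genes screened, the log2 response to starvation differed between p77 and p27 for 16, to serum reduction for 19 and to lipid loading for 21 (edgeR's quasi-likelihood test of the difference, adjusted p under 0.05). Over all genes tested, 13.6, 22.7 and 23.6% passed in the same order. Only genes with more than 3 counts in each group compared could be counted. Genes named for the smallest p in comparisons that share these libraries were among the 33. High counts therefore largely follow from the choice. Values are p77 minus p27. The gene fzd4 is not among these counts. It passed the same test in each state, with fitted differences of 6.12, 6.62 and 6.42 in that order (highest adjusted p = 0.0030). It had no count in proliferating p77 cells, so the sizes of its differences depend on a group without counts. In starvation the difference was 1.94 for bmp8a, 3.04 for hjv, 1.85 for nog2, 0.83 for tob1b, 1.38 for lrp4, 1.11 for frzb, 1.23 for ccnd1 and 3.10 for myog. It was -1.24 for bmpr1ba, -1.12 for bambia, -2.04 for grem2a, -0.62 for crim1, -0.79 for smad6b, -0.84 for id1, -1.47 for id2a and -1.10 for msx1a. In serum reduction it was 1.29 for bmp8a, 3.35 for hjv, 1.13 for lrp4, 1.14 for myod1 and 3.68 for myog. It was -1.78 for acvrl1, -2.07 for nog2, -2.52 for grem2a, -2.42 for fstl3, -1.83 for crim1, -1.49 for smad6b, -0.77 for id1, -1.34 for id2a, -2.94 for msx1a, -2.71 for wnt1, -2.02 for wnt10b, -0.98 for lrp6, -0.86 for dkk3b and -0.93 for frzb. In lipid loading it was 1.69 for bmp8a, 4.95 for hjv, 1.30 for tob1b, 0.84 for ccnd1, 0.87 for myod1 and 4.82 for myog. It was -1.48 for acvrl1, -1.92 for bambia, -4.86 for nog2, -3.60 for grem2a, -1.98 for fstl3, -1.13 for crim1, -3.68 for smad6b, -0.97 for id1, -2.25 for id2a, -2.50 for msx1a, -1.90 for wnt1, -1.92 for wnt10b, -0.58 for frzb, -0.74 for axin2 and -1.60 for sp5a.

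Several of these differences passed the adjusted threshold no longer when 1 of the 12 libraries was left out. In starvation that was so for bmpr1ba with 10 of the 12 (highest adjusted p = 0.19), for id1 with 6 (0.0909), for nog2 with starved p77 replicate 3 or starved p27 replicate 1 (0.137), for msx1a with starved or proliferating p27 replicate 2 (0.0893), and for crim1 (0.0538) and smad6b (0.0652) with starved p27 replicate 2. In serum reduction it was so for lrp6 with 10 (0.175), bmp8a with 8 (0.138) and id1 with 8 (0.128). The starvation difference of grem2a was -2.64 without starved p77 replicate 2.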

How the results depend on the processing

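Of the counts of genes that passed, all but 3 stayed within 1.5 times under the alternatives run. Fitting the compared groups alone gave 1348 genes between p77 and p27 in starvation (3345 in the joint fit, 1320 shared, with fewer genes tested, 14136), 28 genes of the lists there (47 in the joint fit) and 1369 genes for the stage difference in starvation (2132 in the joint fit). With single libraries left out, the count between p77 and p27 in starvation ran from 2434 to 3848. Among log2 fold changes of the 4 genes, 678 moved by at most 1 SE and 47 by more. None took the opposite sign, but 3 went to 0 when the library that held all counts was left out: nog1 in starvation and in serum reduction at p27, without proliferating replicate 2, and id4 between p77 and p27 in starvation, without p27 replicate 3. Those that rest on 1 library are given beside the result. Of the named genes' values, 6217 kept their side of the threshold, 128 lost it, 69 gained it and 0 reversed; the cause was not tested. With the replicate number as a block, 2877 genes passed between p77 and p27 in proliferation (4013 without it) and 10328 in p77 starvation (10498 without it). Whether same-numbered libraries belong together is not known. Where both groups compared stood at or under 3 counts, as for nog1, sost and id4 between the stages in starvation, no difference was detectable at this depth.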
